A study of Rattus norvegicus with 9 samples.

Results

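rno-miR-363-3p, rno-miR-20b-5p and rno-miR-17-2-3p, written below without the species prefix, are mature miRNAs of the miR-106a-363 cluster, and all 3 had a row among the 765 mature miRNAs of the deposited table of rat cornea small RNA. The set was chosen by the RPM of miR-363-3p, nearly absent from normal cornea and high in allografts, so the values of all 3 in allografts against normal corneas, and those of miR-363-3p in every comparison, are given as a description without a test. The series holds 9 libraries from Wistar rats labelled as 6 weeks of age: 3 of untouched normal cornea, 3 of isografts and 3 of allografts, called below by their group with the 12, 34 or 56 of their title. By the meaning of the words, an isograft has a genetically matched donor and an allograft does not, but the labels give neither the donor strain nor the time since grafting nor how the grafts fared, and the allografts too are labelled Wistar. Whether each library holds 1 animal or a pool is not stated either, so the p-values weigh differences against a spread between samples that may be partly technical.

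The miR-106a-363 cluster is a copy, on the X chromosome, of the better known miR-17-92 cluster, and miR-106b-25 is the third copy of this family in mammals. In each cluster several miRNAs are cut from a shared precursor transcript. The family is known for promoting division and survival of lymphocytes, and the X-linked cluster was recognised as a site of retroviral insertion in T cell leukaemias. In the RefSeq gene table of the rat assembly GRCr8, 5 miRNA genes lie next to one another on the minus strand of chromosome X, each within 2 kb of the next. In the direction of transcription their order is Mir106a (also called Mir17-2), Mir20b, Mir19b2, Mir92a2 and Mir363. The deposited data were made with the build rn6, so coordinates of GRCr8 are not given.

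The mature sequences show which reads can be traced to the X chromosome. They are from RefSeq (GRCr8), are written 5′ to 3′, and carry the seed, bases 2 to 8, in capitals. The seed is the part of a miRNA that pairs with its targets. miR-363-3p shares its seed with the miR-25 and miR-92 family, which is known to repress the cell death gene Bcl2l11. Seeds were looked up, here and below, only for the 690 of the 765 listed miRNAs that have a RefSeq sequence under the same name. All 5 of the 690 with this seed are shown.
miR-363-3p: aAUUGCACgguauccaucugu
miR-92a-3p: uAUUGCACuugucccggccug
miR-92b-3p: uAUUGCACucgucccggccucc
miR-25-3p: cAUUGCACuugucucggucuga
miR-32-5p: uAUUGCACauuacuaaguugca

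miR-20b-5p carries the seed of miR-17, a family known to repress Bcl2l11 and the cell cycle inhibitor gene Cdkn1a. The 5 miRNAs with this seed are shown because they are near copies of one another.
miR-20b-5p: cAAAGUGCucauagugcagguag
miR-20a-5p: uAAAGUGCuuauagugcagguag
miR-17-5p: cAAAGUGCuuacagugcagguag
miR-93-5p: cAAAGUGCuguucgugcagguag
miR-106b-5p: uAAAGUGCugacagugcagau
With positions counted from 1 at the 5′ end of miR-20b-5p, 2 of its 23 bases differ from miR-20a-5p, C1U and C10U, and 2 differ from miR-17-5p, C10U and U12C. The authors' rule for reads that match several miRNAs is not given in the sources used here, so the split of reads within this group is uncertain.

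miR-17-2-3p is the opposite arm of the X-linked miR-17 gene, the strand of the hairpin that is usually degraded. It is shown with its counterpart from miR-17-92 on chromosome 15 because their 5p arms are identical and only these 3p arms tell the genes apart.
miR-17-2-3p: aCUGCACUgcaagcacuucuuac
miR-17-1-3p: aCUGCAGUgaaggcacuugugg
These arms differ at 6 of the 22 positions compared. The mature miR-17-5p, miR-19b-3p and miR-92a-3p each have a gene on chromosome X and another on chromosome 15 with the same mature sequence. Reads of these 3 therefore sum both clusters, whereas miR-363-3p, miR-20b-5p and miR-17-2-3p each have a single gene, on chromosome X. Among the listed miRNAs with a RefSeq sequence, miR-191a-3p is the other with the miR-17-2-3p seed, and it ranged from 0.823 to 3.45 RPM over the 9 libraries.

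Between 11001459 and 12153889 reads stood in the denominator of each library, and between 466 and 526 miRNAs were detected. RPM is the number of reads scaled to a common total of that denominator, which also counts reads outside the listed miRNAs. A count of 3 reads, taken here as the detection floor, equals 0.247 to 0.273 RPM. Listed miRNAs held 26.4% to 65.6% of the reads. Isograft 12 stood apart from the other isografts, at 36.8% listed reads against 54.5% and 48.8%, and on the second principal component (3.85 against -10.6 and -9.14). Allografts 12, 34 and 56 were spread as well, at 33.9%, 26.4% and 46.3% listed reads and at 4, 10.4 and -4.06 on that component. The labelled tissue carried its markers: all 8 listed miRNAs of corneal epithelium passed the filter of 5 RPM in 3 libraries, from miR-141-3p, at 8.39 to 33.3 RPM, up to miR-184, which made up most of their sum. The sum ranged from 271148 to 420587 RPM in the normal group, from 159213 to 193990 RPM in the isograft group and from 37254 to 90969 RPM in the allograft group.

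miR-363-3p stood at 2.09, 1.91 and 2.18 RPM in normal corneas 12, 34 and 56 and at 129.7, 118 and 198 RPM in allografts 12, 34 and 56. These are 23, 21 and 24 reads in the normal corneas and 1427, 1304 and 2179 reads in the allografts. All normal libraries lay far below all allografts, and the normal libraries differed little among themselves. In isografts miR-363-3p was at 3.29, 10.8 and 6.45 RPM, or 40, 119 and 71 reads. Each isograft lay above every normal cornea, as did 22.4% of the 281 miRNAs tested, and far below every allograft, and isograft 12 was the lowest of its group. Over pooled reads the rate in allografts was 72.2 times that in normal corneas (95% exact interval 56.9 to 93.2) and 22.1 times that in isografts (19.3 to 25.3), and isografts stood 3.27 times above normal corneas (2.49 to 4.35). Intervals on reads, here and below, express counting error only and leave out the spread between libraries, and PCR copies of a molecule are counted as separate reads. On the log2(RPM + 1) scale, which understates changes of low miRNAs, the differences were 5.58 (SE 0.40) for allografts minus normal corneas, 4.34 (SE 0.40) for allografts minus isografts and 1.24 (SE 0.40) for isografts minus normal corneas.

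miR-20b-5p showed the same order of group means. It stood at 2.27, 0.636 and 0.818 RPM in normal corneas 12, 34 and 56, which are 25, 7 and 9 reads. Isografts held 1.23, 4.27 and 3.998 RPM, or 15, 47 and 44 reads, and allografts 34.9, 30.6 and 50.2 RPM, or 384, 337 and 552 reads. Isograft 12 lay below normal 12, so these groups overlapped, while every allograft lay above both (without overlap, 16.4% of the 281 tested miRNAs were higher in allografts than in isografts). Allografts were higher than isografts by 3.32 on the log2(RPM + 1) scale (SE 0.39, limma, Benjamini-Hochberg adjusted p = 1.2e-07, n = 3 per group). The adjusted p ran from 2.46e-31 to 0.000118 over 21 alternatives. As miR-20b-5p reached the 5 RPM of the filter only in allografts, these p-values are descriptive and give no independent support. Isografts minus normal corneas gave 0.87 (SE 0.39, limma adjusted p = 0.14), which did not pass the threshold of 0.05. Without isograft 12 that difference was 1.27 (limma adjusted p = 0.0018) and passed.

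miR-17-2-3p, the arm that marks the X-linked miR-17 gene, was at or near the floor outside allografts. Normal corneas held 0.272, 0.363 and 0.0908 RPM, from 3, 4 and 1 reads, and isografts 0.165, 1.00 and 0.363 RPM, from 2, 11 and 4 reads. Allografts held 13.6, 11.9 and 32.8 RPM, from 150, 131 and 361 reads. Normal corneas and isografts overlapped, and every allograft lay above them. Allografts exceeded isografts by 3.66 on the log2(RPM + 1) scale (SE 0.35, limma adjusted p = 4.4e-09, n = 3 per group). The adjusted p lay between 1.29e-29 and 1.08e-05 over 21 alternatives. As miR-17-2-3p reached the 5 RPM of the filter only in allografts, these p-values are descriptive and give no independent support. The pooled read rate was 39.1 times higher (95% exact interval 24.2 to 67.5). For isografts minus normal corneas the difference was 0.25 (SE 0.35, limma adjusted p = 0.72), and the pooled rate ratio of 2.05 had an interval from 0.840 to 5.50, so a difference was not detectable at this depth.

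miR-20b-5p and miR-17-2-3p passed the filter only through the allografts, so a higher value there was built into their being tested. Of the 281 miRNAs tested, 13.5% were called higher in allografts than in isografts, and 16.7% in isografts than in normal corneas. With no filter, 9.08% of 606 miRNAs were called higher in allografts than in isografts, miR-20b-5p (adjusted p = 0.000118) and miR-17-2-3p (adjusted p = 1.08e-05) among them. For allografts against normal corneas, the comparison that chose the cluster, 23.1% of the 281 were called higher and 29.9% lay above without overlap. In that comparison miR-20b-5p differed by 4.18 (SE 0.39) and miR-17-2-3p by 3.91 (SE 0.35), with pooled read rates 31.1 and 80.3 times higher. These comparisons share libraries with the choice of the cluster and with one another.

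**Figure D1:**
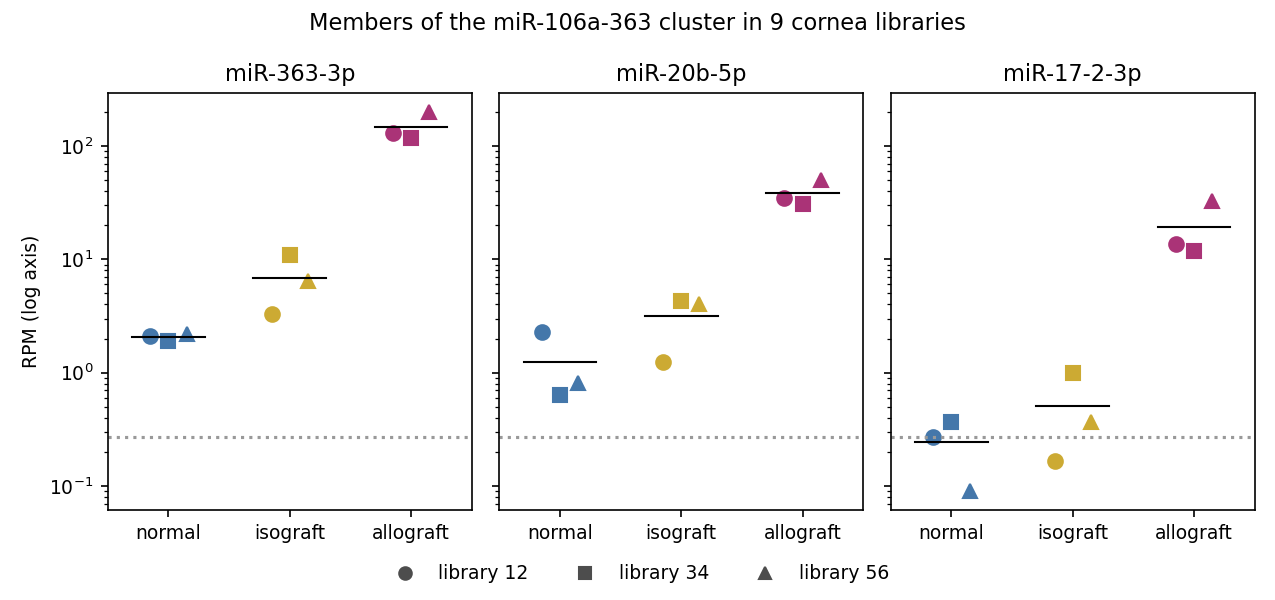
RPM on a log axis for the 3 cluster members in each library, by group (circle, square and triangle for libraries 12, 34 and 56). Black bars are group means and the dotted line is the level of 3 reads; allografts lie between 118 and 198 RPM for miR-363-3p, above every other library, and normal corneas and isografts overlap for miR-20b-5p and miR-17-2-3p.

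Part of the spread within groups moved with the library as a whole. Factors from the median of ratios, a scaling on all miRNAs detected in every library, were 0.716, 1.36 and 1.30 for isografts 12, 34 and 56 and 0.844, 0.721 and 1.29 for allografts 12, 34 and 56. After this scaling the allografts held 154, 164 and 154 units of miR-363-3p and 41.3, 42.5 and 38.9 units of miR-20b-5p. The high place of allograft 56 was then gone for both, while for miR-17-2-3p it stayed the highest, at 25.4 against 16.1 and 16.5. Isografts held 4.596, 7.96 and 4.97 scaled units of miR-363-3p, still above normal corneas at 2.30, 1.84 and 2.04.

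The opposite arms of miR-363-3p and miR-20b-5p did not pass the filter and were seen mainly in allografts. miR-363-5p had 0 reads in all 6 normal and isograft libraries and 8, 5 and 10 reads in the allografts. Set against a floor of 3 reads over the group, its pooled rate in allografts was 7.67 times that of normal corneas and 7.93 times that of isografts. These values leave out counting error in the 23 allograft reads and are not lower bounds. miR-20b-3p had 0, 1 and 0 reads in normal corneas, 0, 1 and 3 reads in isografts and 42, 32 and 54 reads in allografts. The allograft to isograft ratio of its pooled rate was 33.1 (95% exact interval 12.6 to 123), and with no filter on low values the difference was 2.11 on the log2(RPM + 1) scale (SE 0.18, limma adjusted p = 5.1e-06). Within the allografts, miR-363-3p made up 99.4% to 99.6% of the reads of both miR-363 arms and miR-20b-5p 90.1% to 91.3% of the reads of both miR-20b arms. The 5p arms that are particular to the X copies of miR-92a and miR-19b were nearly silent: miR-92a-2-5p had 1 read, in allograft 34, and miR-19b-2-5p had 0 reads in each of the 9 libraries. Of 9 further arm names looked for in the cluster, 6 had a row, and only miR-92a-3p and miR-19b-3p, which the chromosome 15 genes also make, passed the filter.

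Within allografts the members kept a nearly fixed ratio for 1 pair. For every 100 RPM of miR-363-3p there were 26.9, 25.8 and 25.3 RPM of miR-20b-5p in allografts 12, 34 and 56, and 10.5, 10.05 and 16.6 RPM of miR-17-2-3p. The first ratio was alike in all 3 allografts and the second was higher in allograft 56. In isografts the ratio of miR-20b-5p was 37.5, 39.5 and 62.0, and in normal corneas, where it rests on 7 to 25 reads, 109, 33.3 and 37.5.

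The other genes of the family show how much of the difference was shared with the paralogous clusters. With no filter on low values, 4 of 10 listed arms of miR-17-92 were called higher in allografts than in isografts, where 9.08% of 606 miRNAs were. The 10 leave out miR-19b-3p and miR-92a-3p, which both clusters make, but keep miR-17-5p, which both also make. With no filter miR-19b-3p and miR-92a-3p were not called (limma adjusted p = 0.111 and 0.463). The filter left 4 of the 10, of which 3 were called higher, miR-18a-5p among them, which passed it only through the allografts. In isografts against normal corneas 0 of the 4 were called by limma, 0 had an unadjusted p under 0.05, and edgeR and DESeq2 called 0 each, where limma called 16.7% of all miRNAs higher. miR-18a-5p, made only on chromosome 15, stood at 0.817, 0.636 and 0.454 RPM in normal corneas, 0.411, 1.73 and 2.36 in isografts and 8.63, 7.09 and 15.4 in allografts. It rose by 2.21 in allografts against isografts (SE 0.35, limma adjusted p = 2.3e-05 among the 281 and 0.00104 with no filter). miR-19a-3p rose by 1.54 (SE 0.39, limma adjusted p = 0.0036). miR-17-5p, which both clusters make, rose by 1.13 (SE 0.41, limma adjusted p = 0.032), a call lost in 7 of 22 alternatives. Without isograft 12 it was 0.61 (limma adjusted p = 0.127), without allograft 34 1.26 (adjusted p = 0.0608), without allograft 56 0.85 (adjusted p = 0.103) and without normal 56 1.13 (adjusted p = 0.0635). miR-20a-5p, the chromosome 15 counterpart of miR-20b, differed by 1.00 (SE 0.41, limma adjusted p = 0.057).

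Of the miR-106b-25 cluster 4 of 6 arms passed the filter, and limma called 0 of them in each of the 3 comparisons. In allografts against isografts 1 of the 4 had an unadjusted p under 0.05, and edgeR, DESeq2 and limma after median-of-ratios scaling called 3 each higher, where they called 28.1%, 28.1% and 28.5% of the 281 miRNAs higher and limma on RPM 13.5%. The same counts of arms held in allografts against normal corneas, where these shares were 37.4%, 36.7%, 37.0% and 23.1%. In isografts against normal corneas 0 had an unadjusted p under 0.05, edgeR called 0 (23.8% of all miRNAs higher) and DESeq2 called 1 (24.2%), beside 16.7% for limma. Their differences between allografts and isografts ran from 0.05 for miR-106b-3p, which turned to -0.10 when RPM left out miR-184, to 0.96 for miR-106b-5p. miR-92a-3p, of which there is a copy on each chromosome, was among the most abundant of the family, at 846, 1164 and 1041 RPM in normal corneas, 870, 1121 and 1006 in isografts and 1193, 943 and 1870 in allografts. These groups overlapped, and the difference between allografts and isografts was 0.37 (SE 0.35, limma adjusted p = 0.42). miR-19b-3p, the other such miRNA, differed by 1.11 (SE 0.45, limma adjusted p = 0.054). With no filter, the median difference between allografts and isografts was -0.04 over all 606 miRNAs and 0.12 over the 6 miR-106b-25 arms. It was 0.87 over the 10 listed miR-17-92 arms, which leave out miR-19b-3p and miR-92a-3p.

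**Figure D2:**
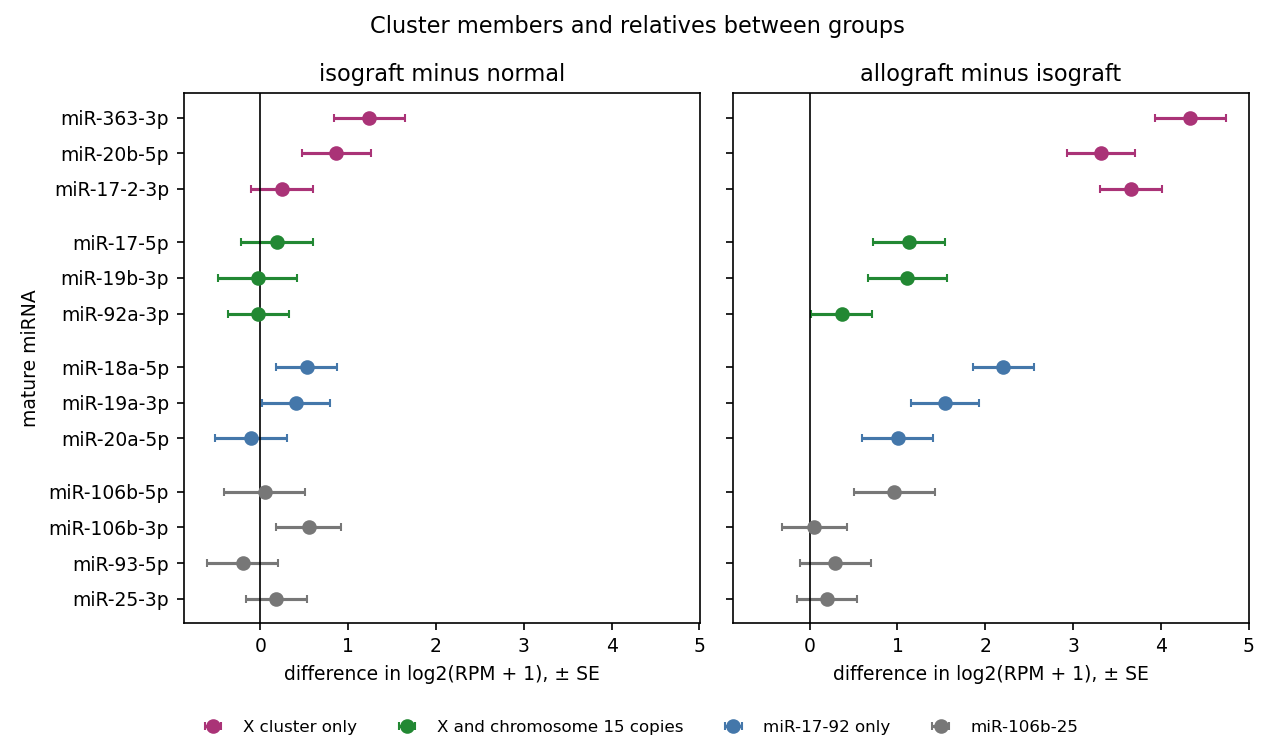
Differences in log2(RPM + 1) with SE from limma for isografts minus normal corneas (left) and allografts minus isografts (right), 3 libraries per group, for members, arms that chromosomes X and 15 both make, arms of miR-17-92 alone and arms of miR-106b-25. The 3 members lie at 3.32 to 4.34 on the right, and the highest relative is miR-18a-5p at 2.21.

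Ratios within a library do not depend on its denominator. For every 100 RPM of miR-20a-5p, miR-20b-5p had 0.573, 0.134 and 0.201 RPM in normal corneas, 0.658, 0.722 and 0.726 in isografts and 5.33, 5.12 and 3.98 in allografts. The ranges of the 3 groups did not overlap, and the isografts lay close together although isograft 12 was low in RPM. The gap between isograft 12 and normal 12 rests on 15 and 25 reads of miR-20b-5p. As a percent of the reads of both miRNAs, their 95% exact intervals overlapped (0.366 to 1.08 and 0.369 to 0.840). With 1 RPM added to both, the log2 ratio was higher in allografts than in isografts by 2.31 (exact two-sided permutation p = 0.1, n = 3 per group) and in isografts than in normal corneas by 0.97 (exact permutation p = 0.1), where 0.1 is the smallest p that 3 libraries against 3 can give. The latter difference was 0.48 with 5 RPM added (exact permutation p = 0.4) and 1.16 with 0.5 RPM added (exact permutation p = 0.1). The pair of miR-17 3p arms, set side by side after their values were seen, is a description. miR-17-2-3p made up 20%, 30.8% and 7.69% of the reads of both arms in normal corneas, from 15, 13 and 13 reads, and 28.6%, 27.5% and 14.8% in isografts, from 7, 40 and 27 reads. In allografts it made up 84.7%, 82.4% and 81.9%, from 177, 159 and 441 reads (95% exact intervals 78.6 to 89.7, 75.6 to 88.0 and 77.9 to 85.3). The arm of the chromosome 15 gene, miR-17-1-3p, was the more frequent in all normal corneas and isografts and the less frequent in all allografts, though its own pooled rate was 2.45 times higher in allografts than in isografts (1.79 to 3.40).

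Even in allografts the members supplied a minority of the reads that carry their seeds. miR-363-3p accounted for 0.133%, 0.0864% and 0.112% of the reads of the 5 miRNAs with its seed in normal corneas, 0.209%, 0.463% and 0.303% in isografts and 5.57%, 5.71% and 5.62% in allografts. The allograft shares agree within their 95% exact intervals (5.30 to 5.86, 5.41 to 6.02 and 5.39 to 5.85), while the RPM of miR-363-3p in the same libraries ran from 118 to 198. miR-20b-5p accounted for 0.266%, 0.0602% and 0.0861% of the reads with its seed in normal corneas, 0.285%, 0.320% and 0.320% in isografts and 2.60%, 2.38% and 1.99% in allografts. These are shares of reads of miRNAs 21 to 23 bases long, and how efficiently each sequence enters a library is not known. The 4 seed relatives of miR-363-3p summed to 1905 RPM ± 324 (SD, n = 3) in normal corneas, to 2006 ± 390 RPM for the isografts and to 2494 ± 731 RPM for the allografts (SD, n = 3), where allografts exceeded isografts by 488 RPM (exact permutation p = 0.5). This difference was 786 by the median of ratios (exact permutation p = 0.1, the smallest possible), 270.2 without isograft 12, 755 without allograft 34 and 71.2 without allograft 56. The 4 relatives of miR-20b-5p summed to 952 RPM ± 102, 1003 ± 496 and 1677 ± 682 (SD, n = 3 each; exact permutation p = 0.4 for allografts against isografts and 0.1 against normal corneas). Here the difference of 675 RPM between allografts and isografts was 888 by the median of ratios (exact permutation p = 0.1), 389 without isograft 12 and 281 without allograft 56. Of single relatives with the miR-363-3p seed, limma called 0 of 4 in allografts against isografts, with 0 at an unadjusted p under 0.05, but edgeR, DESeq2 and limma after median-of-ratios scaling called 4 of 4 higher, beside 28.1%, 28.1% and 28.5% of the 281 miRNAs. Of those with the miR-20b-5p seed limma called miR-17-5p, and the same 3 alternatives called 4 of 4. After median-of-ratios scaling the relatives differed by 0.43 to 1.06 and 0.52 to 1.36, beside 4.56 for miR-363-3p and 3.55 for miR-20b-5p.

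**Figure D3:**
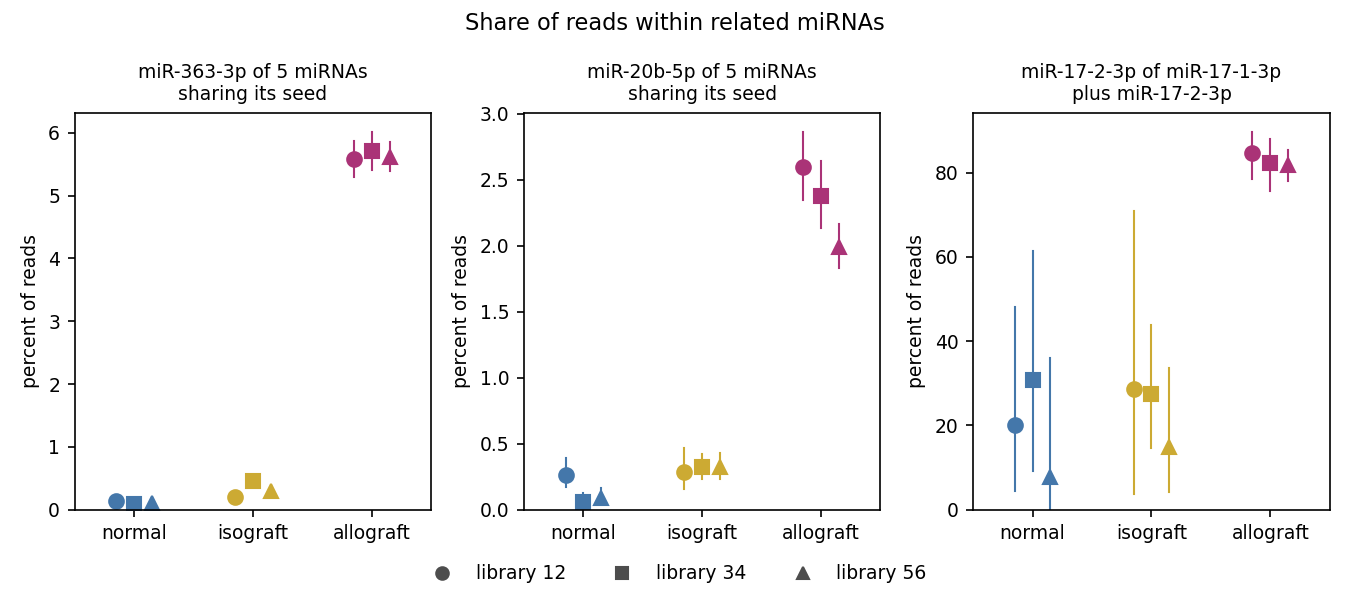
Percent of reads per library, with 95% exact binomial intervals as lines, for miR-363-3p among the 5 miRNAs with its seed, miR-20b-5p among the 5 with its seed, and miR-17-2-3p among both miR-17 3p arms. Allografts reach 5.57% to 5.71%, 1.99% to 2.60% and 81.9% to 84.7%, above all other libraries in each panel.

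Most listed leukocyte miRNAs were, as the members were, highest in allografts. The list held miR-142-3p and miR-142-5p, present in all blood cell lineages, miR-150-5p and miR-342-3p of lymphocytes, miR-155-5p, induced on activation, the myeloid miR-223-3p, miR-146a-5p, induced by NF-kB signalling, and miR-181a-5p. Of its 8 miRNAs, all detected in every library, limma called 6 higher in isografts and 7 in allografts against normal corneas. In allografts against isografts it called 7 higher. Of all 281 miRNAs, 16.7%, 23.1% and 13.5% were called higher in these 3 comparisons. Median differences of the 8 leukocyte miRNAs were 2.30, 5.33 and 2.58 (medians over all 281 miRNAs 0.05, -0.14 and -0.29). Their summed level ran from 1598 to 1821 RPM in the normal group, from 1435 to 3273 RPM in isografts and from 5715 to 10699 RPM in allografts. In isografts against normal corneas, miR-142-3p rose by 2.91 (SE 0.45, limma adjusted p = 1.0e-05) and miR-223-3p by 3.35 (SE 0.41, limma adjusted p = 3.5e-07), beside 1.24 for miR-363-3p. miR-150-5p rose by 1.34 (SE 0.39, limma adjusted p = 0.011) and miR-342-3p differed by 0.44 (SE 0.38, limma adjusted p = 0.54). In such bulk samples more cells of a type and more RNA per cell cannot be told apart, and the part of leukocytes in the levels of the cluster was not tested.

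Set against single leukocyte miRNAs, miR-363-3p took a different path for each. For every 100 RPM of miR-150-5p there were 6.39, 6.34 and 8.11 RPM of miR-363-3p in normal corneas, 6.13, 13.6 and 6.06 in isografts and 13.1, 13.7 and 10.9 in allografts. Isograft 34 lay among the allografts, and the other isografts lay just below the normal corneas. Against miR-155-5p the ratio was lowest in isografts, at 10.5, 19.5 and 12.7 RPM per 100, with 30.7, 28.8 and 28.2 in normal corneas and 38.5, 46.4 and 41.6 in allografts. Against miR-142-3p it was highest in normal corneas, where few reads of either were present, at 52.3, 117 and 77.4 per 100, while isografts had 29.2, 22.8 and 18.6 and allografts 29.3, 25.5 and 29.7.

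Over all 9 libraries the profile most like that of miR-363-3p belonged to miR-150-5p. Likeness was measured as the mean absolute difference between log2(RPM + 1) values, each centred on the miRNA's own mean, and was 0.31 for miR-150-5p against a median of 2.30 over all miRNAs tested. miR-142-5p (0.48), miR-20b-5p (0.55), miR-155-5p (0.60) and miR-17-2-3p (0.66) followed. For miR-20b-5p the nearest were miR-150-3p, the other arm of the same lymphocyte miRNA (0.35), miR-17-2-3p (0.40) and miR-150-5p (0.43), against a median of 1.77. For miR-17-2-3p they were miR-20b-5p (0.40), miR-150-3p (0.42) and miR-147, a miRNA induced in activated macrophages (0.44), against a median of 1.78. The libraries share group, depth and scaling, so these values describe the profiles and carry no test. The added 1 RPM also flattens low values, such as miR-17-2-3p in normal corneas (0.0908 to 0.363 RPM). Profiles with unlike fold differences can therefore look alike, and which cells the likeness reflects was not tested.

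**Figure D4:**
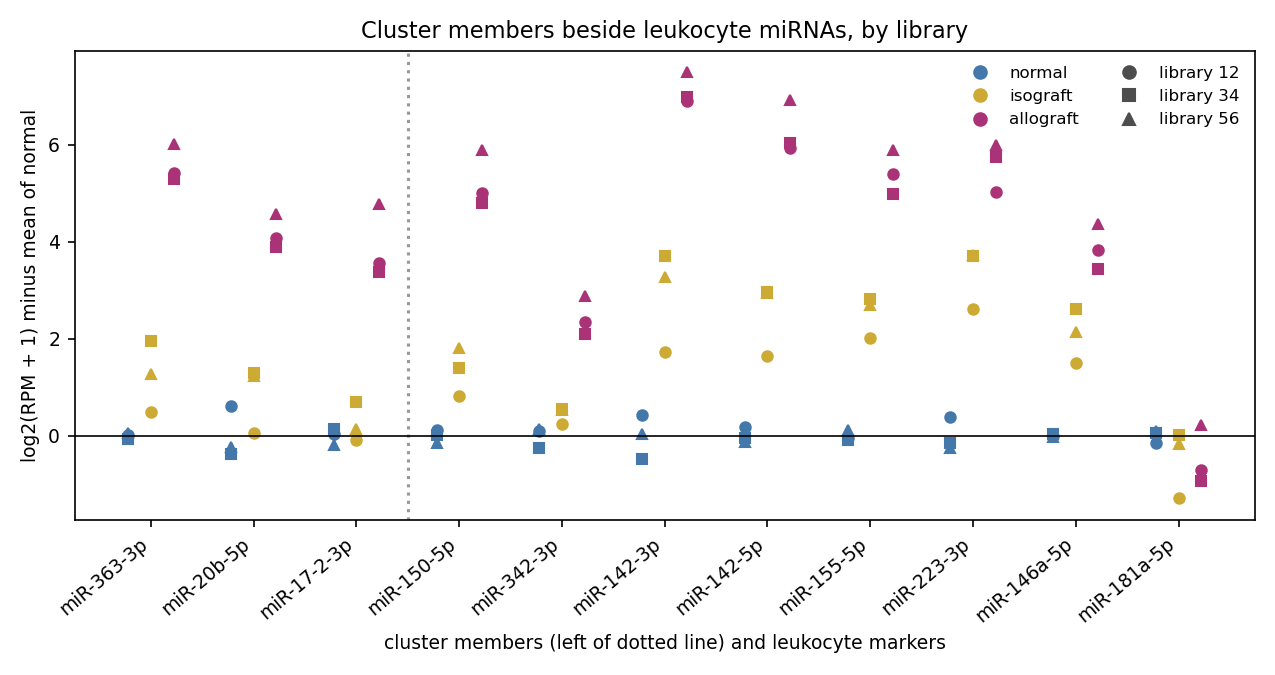
log2(RPM + 1) of each library minus the mean of the normal corneas, for the 3 members (left of the dotted line) and 8 leukocyte miRNAs; colours are groups and marker shapes libraries 12, 34 and 56. Allografts lie highest for the 3 members, whose cluster was chosen for high values there, and for 7 of the 8 leukocyte miRNAs. The exception is miR-181a-5p, with overlapping groups. Of the 281 miRNAs, 16.4% lie higher in allografts than in isografts without overlap, and 29.9% higher than in normal corneas.

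Markers of other cells differed in how they moved with the members. Red blood cell miRNAs (miR-451-5p, both miR-144 arms and miR-486) summed to 19.7, 1068 and 18.5 RPM in allografts 12, 34 and 56, and allograft 34, the highest of these, had the lowest RPM of each of the 3 members. After median-of-ratios scaling, however, allograft 34 was the highest allograft for miR-363-3p (164 against 154 and 154). It was also the highest for miR-20b-5p (42.5 against 41.3 and 38.9) and lay between the others for miR-17-2-3p. In normal corneas the red blood cell sum was 313, 82.4 and 343 RPM. The endothelial miR-126a arms summed to 346 to 857 RPM in the normal group, from 2095 to 6150 RPM in isografts and from 2955 to 4874 RPM in allografts. Isografts and allografts overlapped in this sum. Each member was higher in allografts without overlap, as were 16.4% of the 281 miRNAs, but the cluster was chosen for high values there. Within isografts (12 lowest, 34 highest) and allografts (34 lowest, 56 highest) the endothelial, epithelial and leukocyte sums ranked the libraries as the RPM of each member did. The median-of-ratios factors, taken over all miRNAs detected in every library, had the same order, so the shared ranking is not particular to these markers. The part of these cells in the levels of the members was not tested. The 2 arms rose in isografts against normal corneas and were not called in allografts against isografts, with differences of -0.13 for miR-126a-3p (0.10 by the median of ratios and 0.28 when scaled to the listed miRNAs) and 0.36 for miR-126a-5p.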

How the data were processed

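Small RNA of 9 rat cornea libraries was sequenced with the Illumina TruSeq small RNA kit from 1 ug of total RNA, per the labels' protocols. The authors deposited RPM values for 765 mature miRNAs. bcl2fastq, BWA and the build rn6 are named in the submitters' processing notes; for trimming, annotation and counting rules the sources used here give nothing. RPM values were whole multiples of 1 step per library, and 100% came out as whole reads within 0.1 read. Groups were taken from the tissue labels.

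miRNAs with at least 5 RPM in 3 libraries (281) were tested on log2(RPM + 1) with limma 3.58.1 in R 4.3.3, with a mean-variance trend over all 9 libraries and 6 residual degrees of freedom. The threshold was 0.05 after Benjamini-Hochberg adjustment across the 281. The model was tried on simulated counts with a fixed spread for all miRNAs and no library-wide shifts, which does not test the choice of scaling. Single values were compared by exact permutation (scipy 1.17.1). Named were the members, their cluster arms, seed relatives, paralogous clusters, marker lists and the 5 or 3 nearest profiles. Alternatives were other pseudocounts, filters, scalings and variance models, a block, omitted libraries, and edgeR 4.0.16 and DESeq2 1.42.0 on the recovered reads. Members and lists were chosen with earlier results of these data known. The numbers 12, 34 and 56 are not stated to pair libraries.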

Additional observations from a re-analysis of the deposited data

How the results depend on the processing

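The 2 tested differences of miR-20b-5p and miR-17-2-3p between allografts and isografts kept their direction and call under all 21 alternatives that could be run for them, in ranges of 2.41 to 3.91 and 2.05 to 5.45 on the log2 scale, and miR-17-2-3p in isografts against normal corneas was called in none. Both miRNAs passed the filter only through the allografts, and the alternatives reuse the same libraries, so agreement among the alternatives adds no separate support. A filter of 50 RPM left miR-20b-5p and miR-17-2-3p out. miR-20b-5p in isografts against normal corneas was past the threshold after scaling to the sum of listed miRNAs (0.96), with DESeq2 (1.12) and without isograft 12 (1.27; range over omitted libraries 0.65 to 1.27). A pseudocount of 5 RPM lowered the described differences: miR-363-3p to 0.70, 4.41 and 3.71 (isografts minus normal corneas, allografts minus normal corneas, allografts minus isografts), miR-20b-5p to 2.79 and miR-17-2-3p to 2.12 in allografts against normal corneas, where 0.5 RPM gave 4.62 for miR-17-2-3p. In that comparison miR-363-3p was 6.26 with edgeR, 6.26 with DESeq2, 6.19 scaled to listed miRNAs and 5.29 without miR-184; miR-20b-5p was 5.02 with either count tool and 4.71 scaled to listed miRNAs; and miR-17-2-3p was 6.28 with edgeR and 6.34 with DESeq2. Counts of changed miRNAs, 60, 133 and 97 in that order of comparisons, became 30, 63 and 44 with the 50 RPM filter, which tests fewer miRNAs, 115 and 168 (first and last) by the median of ratios, 114 and 163 with edgeR, 119 and 171 with DESeq2, 122 (first) scaled to listed miRNAs, and 52 to 147 (last) over omitted libraries, lowest without allograft 34 and highest without isograft 12. Higher and lower calls, 47 and 13, 65 and 68, 38 and 59, were 66 and 49, 104 and 91, 80 and 88 by the median of ratios, 38 and 22, 51 and 104, 33 and 73 without miR-184 and 107 and 15, 186 in all with 44 lower, 86 and 55 scaled to listed miRNAs. Under these 3 scalings the median difference of all miRNAs moved from 0.05 to -0.05, -0.22 and 0.33, from -0.14 to -0.02, -0.56 and 0.54, and from -0.29 to -0.08, -0.44 and 0.10. The sum of miR-363-3p seed relatives in isografts minus normal corneas, 101 RPM, turned to -40.8 by the median of ratios and ranged from -69.3 to 319 over omitted libraries; that of miR-20b-5p relatives, 51.2 RPM, turned to -99.1 and ranged from -112 to 336. The cause of these shifts was not tested. Correlations between deviations of same-numbered libraries ran from -0.514 (allograft 34 with normal 34) to 0.557 (allograft 56 with isograft 56). Deviations were taken from the group mean, so these correlations depend on one another and cannot settle whether libraries are paired. The numbers are not taken as pairs because no source used here states it. The replicate block gave 66, 143 and 112 changed miRNAs. Its differences were 3.32 and 3.66 for miR-20b-5p and miR-17-2-3p in allografts against isografts.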
